A study of Mus musculus with 6 samples.

Results

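The 10 genes described here, Apoe, Trem2, Tyrobp, Cst7, Lpl, Itgax, Clec7a, Spp1, Axl and Gpnmb, are among the best known genes of disease-associated microglia. They were found by symbol among the 33696 genes of the series, and each symbol matched exactly 1 row. Cells of mouse brain were sequenced in 6 droplet-based 3' libraries, in which a unique molecular identifier (UMI) marks each captured transcript. There were 2 libraries of TRPM2 Mg KO mice with bilirubin (knockout with bilirubin), 2 libraries of WT mice with bilirubin (WT bilirubin) and 2 libraries of WT mice with vehicle (WT vehicle). The labels do not expand "Mg", and the Cre line, the deleted part of Trpm2, dose, duration, age, sex, brain region and the number of animals behind a library are not given in the sources used here. There is no knockout group with vehicle, so the knockout was seen only under bilirubin. The series title places the stressed liver upstream of negative emotions; bilirubin is the pigment that the liver clears from blood.

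Microglia are the resident macrophages of the brain parenchyma. Around amyloid plaques, damaged myelin and dying neurons of mouse models, part of them lowers homeostatic genes and raises a programme that depends on the receptor TREM2, which binds lipids and lipoproteins and signals through the adaptor TYROBP (DAP12) and the kinase SYK. The programme includes lipid carriers and lipases, lysosomal proteins and further surface receptors. Several of its genes are also used by other cells, among them astrocytes, fibroblasts and blood leukocytes.

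Of 95014 barcodes, 81621 were kept as single cells, 3980 to 19566 per library, with a median of 1148 to 2082 UMIs per cell. Cells were classed by counting markers that stood above 3 times their share of the library, and a class is called "-like" because it rests on such a list. This gave 8190 microglia-like cells, 1513 and 329 in the knockout with bilirubin libraries, 1533 and 873 in WT bilirubin and 1746 and 2196 in WT vehicle. Levels are UMI counts of a gene scaled to the same total of UMIs in each class and library (CPM). The 11 microglial markers, none of them a gene described here, summed to 10325 and 7515 CPM in knockout with bilirubin, 8814 and 9765 in WT bilirubin and 6540 and 6719 in WT vehicle, and none of the 11 was at 0 in any library. Whole libraries held 1280 to 2132 CPM of the same markers. The cells were gated on these markers, so the excess over whole libraries follows from the gate and is no check of the class. The gate left 66% of the kept cells without a class, and 2469 of the 8190 microglia-like cells sat at the smallest lead over the next class that it allows. When cells were clustered instead, 5471 of the 8190 (66.8%) fell in the clusters named microglia. Only 70 border macrophage-like cells were found, 5 to 20 per library. Libraries shared 12 to 144 barcodes per pair, at most 0.943% of a library. Replicate 2 of the knockout with bilirubin stood apart in its gated leukocytes. Its border macrophage-like, T or NK-like and neutrophil-like cells had medians of 14700, 15835 and 15384 UMIs, against 1400 to 4695 in the other libraries. Their own markers summed to 520, 754 and 29081 CPM, against at least 3114, 4300 and 74648 elsewhere. This limit applies to every value of these 3 classes in that library below, means over libraries included. Median mitochondrial shares of the kept cells were 5.59% and 3.79% in knockout with bilirubin, 7.25% and 0.657% in WT bilirubin and 1.06% and 0.836% in WT vehicle. This sign of RNA quality was thus higher in both knockout libraries than in both vehicle libraries, WT bilirubin replicate 1 stood apart from replicate 2, and the part of RNA quality in the levels that follow was not tested.

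Trpm2 was counted with 77 and 21 UMIs in microglia-like cells of the knockout with bilirubin, 96 and 74 in WT bilirubin, and 68 and 81 in WT vehicle. Its log2 fold change in the knockout against WT bilirubin was -0.59 (SE 0.38, edgeR adjusted p = 1, n = 2 libraries per group). Transcripts can still be counted at their 3' end when another stretch is deleted, so this level is no check of the knockout.

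The start regions of 4 members are shown first, of Trem2 because it marked microglia-like cells most clearly, and of Cst7, Itgax and Clec7a because these 3 had the smallest p-values among the members. Each is 250 bases before to 50 bases after the RefSeq start on GRCm38.p6, read 5′ to 3′ on the gene's strand. Capitals mark matches on either strand to GAGGAAG (the ETS motif of PU.1), TTNNGCAA (a C/EBP motif) or CACGTG (the E-box of the MITF and TFE family). The regions are chr17:48346151-48346450 (plus strand) for Trem2, chr2:150570165-150570464 (plus strand) for Cst7, chr7:128129300-128129599 (plus strand) for Itgax and chr6:129472730-129473029 (minus strand) for Clec7a.
Trem2: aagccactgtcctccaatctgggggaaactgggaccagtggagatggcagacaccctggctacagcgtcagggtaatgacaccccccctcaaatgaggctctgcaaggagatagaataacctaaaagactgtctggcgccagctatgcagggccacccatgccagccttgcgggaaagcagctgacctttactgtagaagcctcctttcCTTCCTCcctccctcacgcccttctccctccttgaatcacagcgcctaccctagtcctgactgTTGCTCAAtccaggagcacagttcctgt
Cst7: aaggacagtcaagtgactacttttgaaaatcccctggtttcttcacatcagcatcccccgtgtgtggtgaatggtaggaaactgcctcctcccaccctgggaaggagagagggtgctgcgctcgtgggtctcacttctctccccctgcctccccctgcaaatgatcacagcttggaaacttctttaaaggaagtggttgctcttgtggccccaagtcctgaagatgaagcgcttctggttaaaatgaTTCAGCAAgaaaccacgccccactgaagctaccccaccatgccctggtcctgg
Itgax: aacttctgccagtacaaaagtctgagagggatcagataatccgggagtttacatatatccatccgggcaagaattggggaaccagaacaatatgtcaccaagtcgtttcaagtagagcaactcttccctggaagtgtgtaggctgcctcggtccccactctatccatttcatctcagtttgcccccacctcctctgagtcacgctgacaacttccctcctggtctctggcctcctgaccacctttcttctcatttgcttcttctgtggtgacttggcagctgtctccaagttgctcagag
Clec7a: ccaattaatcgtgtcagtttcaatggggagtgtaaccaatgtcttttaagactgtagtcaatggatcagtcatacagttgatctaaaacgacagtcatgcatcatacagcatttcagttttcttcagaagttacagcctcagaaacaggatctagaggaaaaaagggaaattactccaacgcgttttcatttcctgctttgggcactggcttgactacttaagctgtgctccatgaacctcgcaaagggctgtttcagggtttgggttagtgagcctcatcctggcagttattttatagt
The Trem2 region held the PU.1 and the C/EBP letters, each on the reverse strand, without overlap between them. The Cst7 region held the C/EBP letters close to the annotated start, and none of the 3 sets of letters occurs in the Itgax and Clec7a windows. Among all 32851 start regions of the same length in the table, 13.6% hold the PU.1 letters, 10.8% the C/EBP letters and 7.15% the E-box. A match is a description of letters, and the libraries hold no measurement of binding.

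The first comparison asks what bilirubin did to these genes in wild-type microglia-like cells. CPM levels are compared between samples and classes and not between genes. Fold changes come from edgeR's quasi-likelihood test on summed UMIs with all 6 libraries in 1 fit, and p-values were adjusted over all 14173 genes tested. No member passed at an adjusted p of 0.05. In that comparison 237 genes, 1.67% of those tested, were called, 39 higher (0.275%) and 198 lower (1.4%); the count was 0 when only the 4 wild-type libraries were fitted and 3 when doublets were kept. Itgax and Clec7a came nearest to the threshold.

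**Figure D1:**
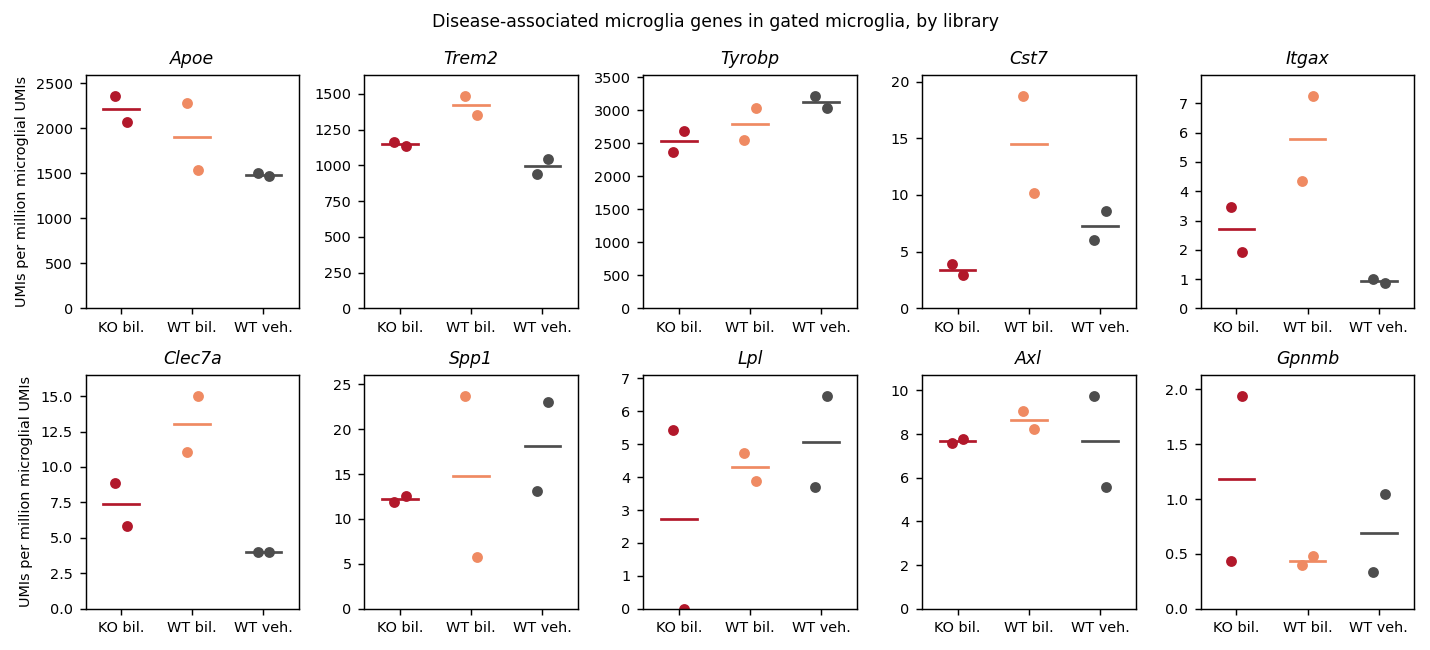
Level of each member in microglia-like cells, in CPM of the class on an axis that starts at 0. Each point is 1 library and each bar the mean of 2 libraries, with the knockout with bilirubin (KO bil.) left, WT bilirubin (WT bil.) in the middle and WT vehicle (WT veh.) right. Clec7a and Itgax lie higher in both WT bilirubin libraries than in both WT vehicle libraries, and Cst7 is lowest in the knockout with bilirubin.

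Among the receptors, Trem2 stood at 1487 and 1355 CPM in WT bilirubin and at 942 and 1044 CPM in WT vehicle. The groups did not overlap, but the log2 fold change of 0.43 (SE 0.32, adjusted p = 0.525, edgeR, n = 2 per group) was close to the spread between libraries. Clec7a, which encodes dectin-1, a receptor that signals through SYK, had 11.05 and 14.999 CPM in WT bilirubin and 4.03 and 4.02 CPM in WT vehicle. These levels rest on 56 and 31 UMIs in WT bilirubin and 12 and 23 UMIs in WT vehicle. The log2 fold change of Clec7a was 1.57 (SE 0.41, 95% interval 0.69 to 2.44, unadjusted p = 0.00181, adjusted p = 0.065, edgeR). Itgax, the integrin alpha chain CD11c, had 22 and 15 UMIs in WT bilirubin and 3 and 5 UMIs in WT vehicle, which is 4.34 and 7.26 CPM against 1.01 and 0.873 CPM. Its log2 fold change was 2.45 (SE 0.65, 95% interval 1.06 to 3.85, adjusted p = 0.0689, edgeR). Itgax passed the filter on low counts only through libraries with bilirubin, where it was higher, and both WT vehicle levels lay below the cut. Both genes were higher in each WT bilirubin library than in each WT vehicle library. Their side of the threshold depended on the processing: without the filter on low counts the adjusted p was 0.00966 for Itgax and 0.0145 for Clec7a, and without WT bilirubin replicate 1, the library with the high mitochondrial share, it was 0.0457 and 0.0334. That fit has 1 WT bilirubin library, which is assumed to vary like the libraries of the other groups. Axl, a receptor kinase that binds GAS6 on dying cells, had 9.08 and 8.23 CPM in WT bilirubin and 9.74 and 5.59 CPM in WT vehicle, and these groups overlapped (log2 fold change 0.14, SE 0.41, adjusted p = 0.895, edgeR).

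Tyrobp, the signalling adaptor of TREM2, stood at 2548 and 3038 CPM in WT bilirubin and at 3219 and 3040 CPM in WT vehicle. The log2 fold change was -0.26 (SE 0.34, adjusted p = 0.744, edgeR), smaller than its error. Cst7, which encodes cystatin F, an inhibitor of lysosomal cysteine proteases, had 18.7 and 10.2 CPM in WT bilirubin and 6.05 and 8.56 CPM in WT vehicle, from 95, 21, 18 and 49 UMIs in that order. Its groups did not overlap, and its log2 fold change was 0.92 (SE 0.40, unadjusted p = 0.0403, adjusted p = 0.256, edgeR). Without WT bilirubin replicate 1 it was 0.30.

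Of the secreted and lipid-handling members, Apoe, the main lipid carrier of the brain, had 2281 and 1531 CPM in WT bilirubin and 1503 and 1467 CPM in WT vehicle. WT bilirubin replicate 2 lay next to the vehicle libraries, and the log2 fold change was 0.27 (SE 0.34, adjusted p = 0.73, edgeR). Spp1, the secreted protein osteopontin, spread most among replicates, with 23.7 and 5.81 CPM in WT bilirubin and 13.1 and 23.1 CPM in WT vehicle (log2 fold change -0.30, SE 0.47, adjusted p = 0.793, edgeR). Without WT bilirubin replicate 1 its log2 fold change was -1.81 with an adjusted p of 0.0383 (edgeR), again with 1 library in the group and its spread taken from the others. Lpl, lipoprotein lipase, had 4.74 and 3.87 CPM in WT bilirubin and 3.70 and 6.46 CPM in WT vehicle, and the groups overlapped. Gpnmb, a glycoprotein of lysosomes and the cell surface, had 1 to 6 UMIs per library over all microglia-like cells, 14 in all, and did not pass the filter on low counts.

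On levels scaled by TMM, 4 members, Trem2, Cst7, Itgax and Clec7a, were higher in both WT bilirubin libraries than in both WT vehicle libraries, and 1, Tyrobp, was lower; among all genes tested, 48.4% had no overlap, 24% higher and 24.3% lower. Of the 9 members tested, 6 had a log2 fold change above 0, beside 54.6% of all genes, and the median was 0.27 beside 0.06 for all genes. Itgax is in both counts, and it passed the filter on low counts only through libraries with bilirubin. Its direction in these counts was thus favoured by the filter. With 2 libraries per group an exact permutation test cannot go below p = 0.333.

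The second comparison asks whether the genes differed between knockout and wild type under bilirubin. No member passed, and 1 gene of 14173 (0.00706%) was called. Cst7 had the smallest p of the members. It had 18 and 3 UMIs in the knockout with bilirubin and 95 and 21 UMIs in WT bilirubin, which is 3.91 and 2.91 CPM against 18.7 and 10.2 CPM. The knockout libraries were the 2 lowest of all 6 for Cst7. The log2 fold change was -2.09 (SE 0.48, 95% interval -3.12 to -1.06, unadjusted p = 0.000687, adjusted p = 0.708, edgeR). Without the filter on low counts the same change of -2.08 had an adjusted p of 0.0121 and the cause of that change was not tested. Without WT bilirubin replicate 1 the change was -1.50 (adjusted p = 0.233, edgeR). Against WT vehicle, the log2 fold change of the knockout with bilirubin was -1.17 (SE 0.49, unadjusted p = 0.0326, adjusted p = 0.594, edgeR). The 2 knockout comparisons and the bilirubin comparison share libraries, so their values are set side by side and not counted as separate support.

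Clec7a had 8.90 and 5.82 CPM in the knockout with bilirubin, between the 11.05 and 14.999 CPM of WT bilirubin and the 4.03 and 4.02 CPM of WT vehicle. Its log2 fold change was -0.75 against WT bilirubin (SE 0.41, adjusted p = 1, edgeR) and 0.82 against WT vehicle (SE 0.43, adjusted p = 0.643). Itgax lay between as well, with 3.47 and 1.94 CPM in the knockout with bilirubin, from 16 and 2 UMIs. Its log2 fold change was -0.92 (SE 0.60, adjusted p = 1, edgeR) against WT bilirubin and 1.53 (SE 0.71, adjusted p = 0.613) against WT vehicle. Trem2 stood at 1165 and 1139 CPM in the knockout with bilirubin, against 1487 and 1355 CPM in WT bilirubin (log2 fold change -0.33, SE 0.32, adjusted p = 1, edgeR). For Clec7a, Itgax and Trem2 both knockout libraries thus lay between the 2 wild-type groups on these levels, and no test found a difference. On TMM-scaled levels this order holds for Clec7a and Itgax but not for Trem2. There, knockout replicate 1 had 1086 CPM of Trem2 and WT vehicle replicate 2 had 1103 CPM. The share of all genes with this order was not counted, so it is not read as particular to these genes.

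Apoe had 2358 and 2066 CPM in the knockout with bilirubin, and these overlapped the 2281 and 1531 CPM of WT bilirubin. Tyrobp had 2365 and 2692 CPM in the knockout with bilirubin, against 2548 and 3038 CPM in WT bilirubin. Axl had 7.60 and 7.76 CPM in the knockout with bilirubin and 9.08 and 8.23 CPM in WT bilirubin. Spp1 and Lpl overlapped between these groups: Spp1 had 11.9 and 12.6 CPM in the knockout with bilirubin, and Lpl had 5.43 CPM in knockout replicate 1 and 0 UMIs in replicate 2, which allows up to 2.91 CPM at the floor of 3 counts. Of the 9 members tested, 5 were lower in both knockout libraries than in both WT bilirubin libraries, and 0 were higher. These 5 were Trem2, Cst7, Itgax, Clec7a and Axl. Of all genes, 27.6% had no overlap, 13.3% lower and 14.3% higher. Knockout replicate 2 held 8 UMIs of Axl, 3 of Cst7 and 2 of Itgax. For Axl its gap to WT bilirubin replicate 2 is smaller than 1 UMI of that knockout library. Of the 9, 1 had a log2 fold change above 0, beside 48.7% of all genes, with a median of -0.33 beside -0.01.

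For the knockout with bilirubin against WT vehicle, no gene of 14173 was called (0%); 1155 genes had an unadjusted p under 0.05 by edgeR and DESeq2 called 2. Apoe, Itgax and Clec7a were higher in both knockout libraries than in both vehicle libraries and Tyrobp, Cst7 and Spp1 lower, again on TMM-scaled levels, beside 46.1% of all genes without overlap. The largest of these by fold was Itgax, given above, and the log2 fold change of Apoe was 0.46 (SE 0.35, adjusted p = 0.734, edgeR). The direction of Itgax against WT vehicle was favoured by the filter here as well.

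**Figure D2:**
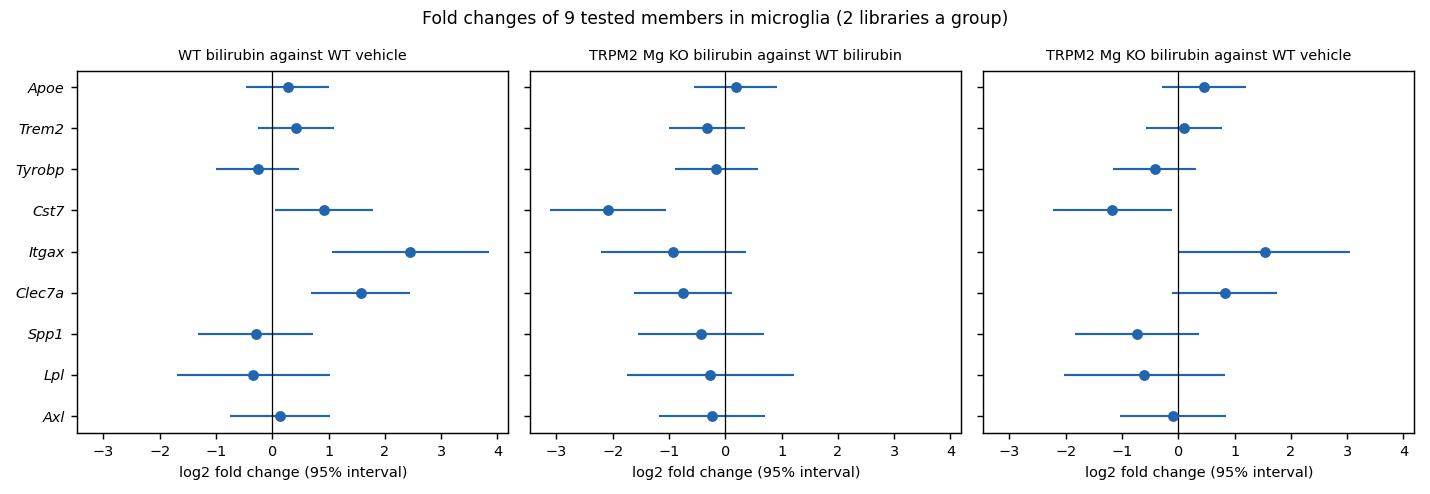
Log2 fold change of the 9 tested members in microglia-like cells with its 95% interval, 1 panel per comparison, 2 libraries per group; values above 0 are higher in the group named first. The intervals of Itgax, Clec7a and Cst7 lie above 0 in the bilirubin comparison, and that of Cst7 lies below 0 in both knockout comparisons; that of Itgax lies just above 0 in the knockout against WT vehicle, but no adjusted p was under 0.05.

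Neutrophils and T or NK cells use Clec7a and Cst7, so their markers in the microglia-like cells are given beside these genes. The 12 neutrophil markers summed to 75.8 and 36.9 CPM in knockout with bilirubin, 208 and 235 CPM in WT bilirubin and 45.0 and 38.3 CPM in WT vehicle, and thus were highest in the group where Clec7a was highest. In neutrophil-like cells of the same libraries the same list summed to 115987 and 29081 CPM in knockout with bilirubin, 185531 and 320847 CPM in WT bilirubin and 182387 and 74648 CPM in WT vehicle. The 14 T or NK markers summed to 11.1 to 24.2 CPM in microglia-like cells, highest in a WT vehicle library. In a further fit, the 735 microglia-like cells with a marker of either leukocyte class were left out. The log2 fold changes were then 1.54 for Clec7a and 2.45 for Itgax with bilirubin. For Cst7 in the knockout against WT bilirubin the change was -2.12. Leukocyte RNA below the marker cut stays in the cells left, and its part in these levels was not tested. Neuronal transcripts, a sign of free RNA from other cells, summed to 2601 and 3871 CPM in knockout with bilirubin, 1618 and 1085 CPM in WT bilirubin and 13780 and 4242 CPM in WT vehicle. With bilirubin 6 of the 7 were called lower, where 1.4% of all genes were called lower. No gene was called when only the wild-type libraries were fitted. The part of such free RNA in the levels above was not tested.

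Shares of cells with a UMI were computed after thinning each cell to 1000 UMIs, which left out 25 to 213 microglia-like cells per library. Clec7a was seen in 0.737% ± 0.196 of microglia-like cells in knockout with bilirubin, 1.07% ± 0.251 in WT bilirubin and 0.319% ± 0.024 in WT vehicle (SD, n = 2), against 0.0444% ± 0.0628, 0.0879% ± 0.124 and 0.133% ± 0.0682 of endothelial-like cells, which should lack it. Itgax was seen in 0.294% ± 0.176, 0.455% ± 0.118 and 0.0914% ± 0.0032 of microglia-like cells in the same order of groups. Cst7 was seen in 0.409% ± 0.186 of microglia-like cells in knockout with bilirubin, 1.48% ± 0.672 in WT bilirubin and 0.642% ± 0.0992 in WT vehicle, against 0.111% ± 0.0981, 0.506% ± 0.359 and 0.214% ± 0.0019 of endothelial-like cells in the same order of groups, so the endothelial share had the highest mean in WT bilirubin and the lowest in the knockout as well. Without thinning the shares for Cst7 were 1.02%, 3.60% and 1.34% in microglia-like cells and 0.514%, 0.622% and 0.317% in endothelial-like cells. These genes were thus found in few of the gated microglia-like cells in every group. The gate asked for markers such as P2ry12, Tmem119 and Cx3cr1, homeostatic genes that are lowered where the programme rises. Microglia that had lowered them could be left out, and the share of the members in such cells was not counted. Trem2 was seen in 62.9% ± 1.99, 70.7% ± 1.69 and 59.3% ± 2.05 of thinned microglia-like cells of knockout with bilirubin, WT bilirubin and WT vehicle, against 19.7%, 17.1% and 20.7% of endothelial-like cells. Median depth before thinning was 1640 to 3062 UMIs in microglia-like cells and 1199 to 3209 UMIs in endothelial-like cells. The shares of Spp1, Axl and Lpl lay close to those in endothelial-like cells. Group means for Spp1 were 1.28% to 1.80% in microglia-like cells against 1.34% to 2.01%, for Axl 0.774% to 0.890% against 0.501% to 1.16%, and for Lpl 0.235% to 0.501% against 0.202% to 0.554%. For these 3 genes the microglial counts, those of the comparisons above included, were not told apart from free RNA.

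The scarce members Cst7, Lpl, Itgax, Clec7a, Spp1, Axl and Gpnmb were each found in few cells, which by itself keeps joint detection rare. The number of joint cells expected from the single genes was not computed. The counts that follow thus do not show whether these genes go together. Of 8190 microglia-like cells, 858 held a UMI of at least 1 of these 7 genes, 66 of at least 2 and 9 of at least 3. Cells with 2 or more were 0.727% and 0.608% of the microglia-like cells in knockout with bilirubin, 1.83% and 0.916% in WT bilirubin and 0.229% and 0.592% in WT vehicle. After thinning 7527 cells to 1000 UMIs, 12 cells held 2 or more, too few to compare groups at equal depth.

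The 330 microglia-like cells with a UMI of Cst7, Itgax or Clec7a, 10 to 120 per library, were set against the other 7860 in the same libraries, as a description of these cells in genes picked for it after other results were seen. Apoe was higher in these carriers in 6 of 6 libraries, with 2792 ± 677 CPM in carriers and 1817 ± 418 CPM in the other cells (SD over 6 libraries), 1.13 to 1.93 times. Lyz2, the lysozyme of myeloid cells, was higher in 6 of 6 libraries (328 ± 122 CPM in carriers, 190 ± 84.6 CPM in the others), as was Cd9, a tetraspanin of the disease-associated programme (1472 ± 347 CPM in carriers, 1103 ± 156 CPM in the others). The homeostatic receptor gene P2ry12 was lower in carriers in 5 of 6 libraries, with 776 ± 274 CPM in carriers and 916 ± 303 CPM in the others. Trem2 was higher in carriers in 3 of 6 libraries and Tyrobp in 4 of 6. Carriers were deeper, with a median of 2040 to 3935 UMIs against 1635 to 2949 UMIs in the other cells of the libraries, and the part of depth was not tested.

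**Figure D3:**
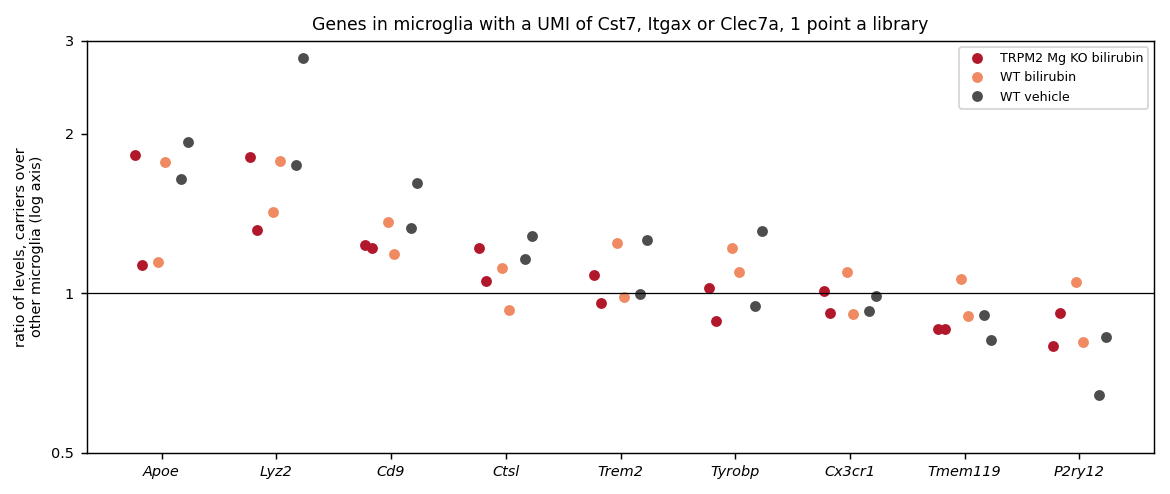
Ratio of the level of 9 genes in microglia-like cells with a UMI of Cst7, Itgax or Clec7a (carriers) over the other microglia-like cells of the same library, on a log axis; each point is 1 library. Apoe, Lyz2 and Cd9 lie above 1 in all 6 libraries, and P2ry12 and Tmem119 lie below 1 in 5 of 6.

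Over 15 cell classes with at least 50 cells, Trem2 had its highest level in microglia-like cells. It reached 1189 ± 201 CPM there (SD over 6 libraries) and 450 ± 97.1 CPM in border macrophage-like cells, and the lowest microglial library (942 CPM) lay above the highest macrophage library (554 CPM). The next classes, mural-like cells with 259 ± 85.0 CPM and excitatory neuron-like cells with 258 CPM, overlapped with the macrophages. Tyrobp was shared by myeloid classes: 3109 ± 1067 CPM in neutrophil-like cells, 2817 ± 333 CPM in microglia-like cells and 2228 ± 589 CPM in border macrophage-like cells, neighbours that overlap in their libraries. Mural-like cells followed with 908 CPM. There were 2.33 Tyrobp UMIs for each Trem2 UMI in microglia-like cells, 4.27 in border macrophage-like cells and 12.99 in neutrophil-like cells, and 2.76 to 3.89 in each of the other 12 classes, close to the 3.17 of whole libraries.

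Apoe was highest in border macrophage-like cells (13409 ± 6052 CPM) and in astrocyte-like cells (7343 ± 1942 CPM), the main source of the protein in the healthy brain, and then in ependymal-like cells (3999 ± 871 CPM). In microglia-like cells it did not rise above classes not known for it. Endothelial-like cells had 2294 and 2190 CPM of Apoe in knockout with bilirubin, 2267 and 1886 CPM in WT bilirubin and 2262 and 2075 CPM in WT vehicle. T or NK-like cells had 2196 and 3894 CPM, 2144 and 786 CPM, and 1625 and 1408 CPM in the same order of groups, the 3894 CPM being that of the library set apart above. The microglial Apoe level was below that of the whole library in each of the 6 libraries; whole libraries had 3751 and 3607 CPM in knockout with bilirubin, 3351 and 2595 CPM in WT bilirubin and 2508 and 2232 CPM in WT vehicle. Whole-library Apoe thus moved in the same direction as the microglial level, and free Apoe RNA cannot be told apart from microglial Apoe here.

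**Figure D4:**
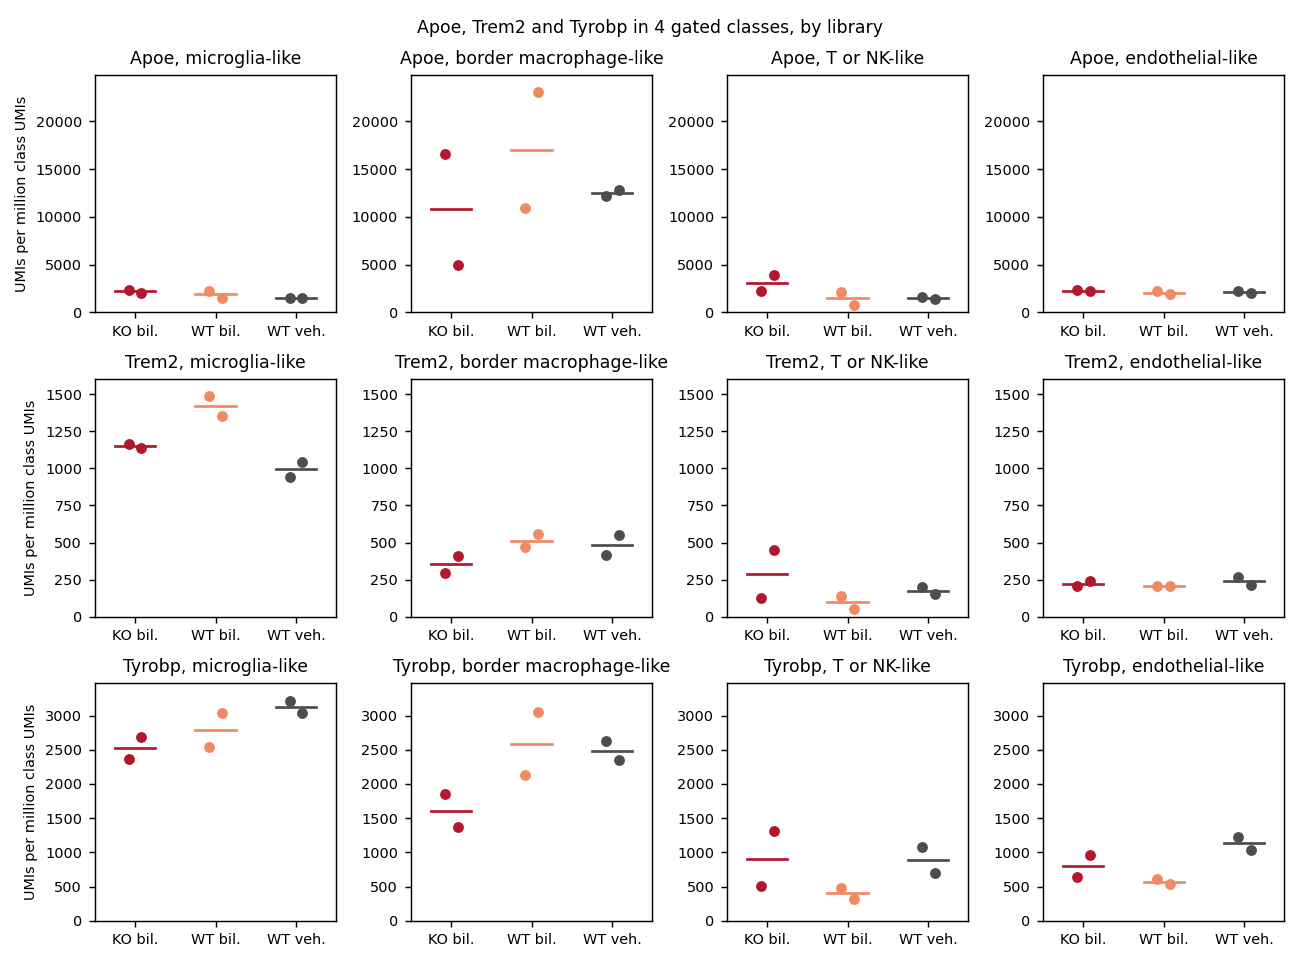
Levels of Apoe, Trem2 and Tyrobp in 4 classes, in CPM of the class, with 1 axis range per row that starts at 0; each point is 1 library and each bar the mean of 2 libraries. Trem2 and Tyrobp are higher in every microglia-like sample than in the T or NK-like and endothelial-like cells of any library, while microglial Apoe lies among the values of those classes.

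Cst7 was highest in T or NK-like cells, with 50.4 ± 22.8 CPM against 8.39 ± 5.76 CPM in microglia-like cells, and endothelial-like cells followed with 2.15 CPM. In T or NK-like cells Cst7 had 43.6 and 13.1 CPM in knockout with bilirubin, 78.5 and 41.9 CPM in WT bilirubin and 64.5 and 61.1 CPM in WT vehicle; the second of these knockout values comes from the library whose T or NK-like cells held few T or NK markers. The change against WT bilirubin there was -1.26 (log2, SE 0.57, unadjusted p = 0.0455, adjusted p = 0.958, edgeR). Clec7a was highest in neutrophil-like cells (90.4 ± 86.1 CPM), where it ran over 13.2 to 240 CPM among libraries, or 23.7 to 240 CPM without the knockout library set apart above, then in border macrophage-like cells (34.7 CPM) and in microglia-like cells (8.14 ± 4.37 CPM). Excitatory neuron-like cells, with 5.78 CPM, rest on 2 UMIs. Itgax had 3.15 ± 2.43 CPM in microglia-like cells, 3.13 ± 3.74 CPM in T or NK-like cells and 2.34 CPM in neutrophil-like cells, which do not differ beyond their spread.

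Spp1 and Axl were highest outside myeloid cells. Spp1 had 275 ± 108 CPM in fibroblast-like cells and 100.2 ± 53.4 CPM in mural-like cells. Axl had 45.7 ± 39.3 CPM in mural-like cells, 31.5 CPM in border macrophage-like cells and 23.0 ± 12.6 CPM in astrocyte-like cells, neighbours that overlap. Lpl was at 8.35 CPM in GABAergic neuron-like cells from 4 UMIs, at 5.78 CPM in border macrophage-like cells from 1 UMI, at 4.03 ± 2.22 CPM in microglia-like cells and at 2.99 CPM in endothelial-like cells. Gpnmb was highest in border macrophage-like cells through 2 UMIs of 1 library, and was at 1.66 CPM in astrocyte-like and 0.863 CPM in T or NK-like cells. No order can be read for these 2 genes.

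**Figure D5:**
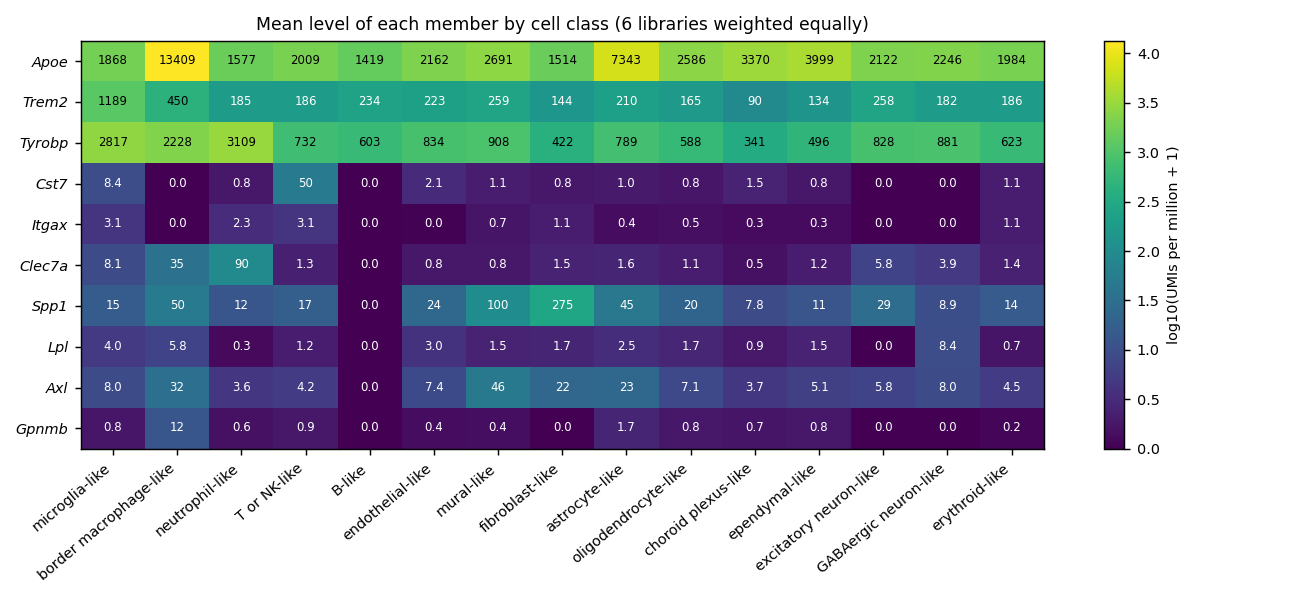
Mean level of each member by cell class, the 6 libraries weighted equally; numbers are CPM and colours their log10 after adding 1, to be read along a row and not between genes. Trem2 peaks in microglia-like cells, Tyrobp in the 3 myeloid classes, Apoe in border macrophage-like and astrocyte-like cells and Spp1 in fibroblast-like cells.

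The genes whose class pattern was most like that of a member were sought among 11749 genes by Pearson's r of log2(CPM + 1) class means over 15 classes, which share libraries and depth. For Trem2 C1qa was among these (r = 0.98), and for Tyrobp they were Fcer1g (r = 0.98) and Alox5ap (r = 0.96). Cst7 followed Klrd1 (r = 0.92) and Txk (r = 0.89), both genes of lymphocytes. Clec7a followed Cd300ld (r = 0.92) and Cd101 (r = 0.91), Spp1 followed Ston1 and Fstl1 (r = 0.92 each), and Axl followed Mylk (r = 0.91) and Ankrd50 (r = 0.89). Apoe was nearest to Aldh5a1 (r = 0.92) and Sec14l2 (r = 0.88), and Itgax to Apobr (r = 0.80) and Rassf5 (r = 0.78). The nearest genes for Lpl (H2ac25 and Ddx19a, r = 0.91 and 0.90) and Gpnmb (Gm12089 and Gm54112, r = 0.97 and 0.96) rest on the few UMIs given above.

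In border macrophage-like cells, macrophages of the meninges and vessels, 3 members passed the filter on low counts, Apoe, Trem2 and Tyrobp, and no gene of 714 was called in any of the 3 comparisons (0%). With an unadjusted p under 0.05 there were 47 genes for bilirubin, 10 for the knockout against WT bilirubin and 24 for the knockout against vehicle; DESeq2 called 2 in the first of these. Apoe had 16605 and 4933 CPM in knockout with bilirubin, 10886 and 23043 CPM in WT bilirubin and 12140 and 12850 CPM in WT vehicle. The lowest value is that of the library whose macrophage-like cells held few macrophage markers, and the spread within the bilirubin groups was larger than any difference between group means. Without that library the log2 fold change of Apoe in the knockout was 0.14 against WT bilirubin and 0.66 against WT vehicle, against -0.53 and -0.03 with it, so its direction rests on that library; 4 and 2 genes of the class were then called in these comparisons and 12 in the bilirubin comparison, none of them a member. Trem2 had 14 and 65 UMIs in knockout with bilirubin, 34 and 16 in WT bilirubin and 3 and 7 in WT vehicle, which is 297 and 412 CPM, 473 and 554 CPM, and 414 and 548 CPM in the same order of groups. Tyrobp had 1847 and 1370 CPM in knockout with bilirubin, 2127 and 3049 CPM in WT bilirubin and 2621 and 2351 CPM in WT vehicle; its log2 fold change was -0.60 for the knockout against WT bilirubin (SE 0.49, adjusted p = 0.995, edgeR). The 412 CPM of Trem2 and the 1370 CPM of Tyrobp come from the library whose macrophage-like cells held few macrophage markers, and the gap between its Trem2 and the 414 CPM of WT vehicle replicate 1 is smaller than 1 UMI of that vehicle library. With it, both genes were lower in the knockout libraries than in both libraries of either wild-type group, where 9.94% of genes were lower without overlap against WT bilirubin and 14.4% against WT vehicle (20.4% and 36.6% in either direction, and 41.5% for WT bilirubin against WT vehicle). Without it, 1 knockout library was left, and the log2 fold changes against WT bilirubin were -0.63 for Trem2 and -0.33 for Tyrobp (adjusted p = 0.993 each, edgeR). Clec7a had 0 and 0 UMIs in knockout with bilirubin, 5 and 4 UMIs in WT bilirubin and 0 and 0 in WT vehicle, among 7249 to 157704 UMIs of the class per library. The class totals of WT vehicle were so small that 3 counts would be 235 to 414 CPM, so a difference from the 69.5 and 138.6 CPM of WT bilirubin was not detectable at this depth. Itgax and Cst7 had 0 UMIs in these cells in every library. The changes in microglia-like and border macrophage-like cells were set against each other for the 3 members and did not differ by the test of the difference (smallest adjusted p among the 9 tests 0.934, edgeR over 709 genes).

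In the other 9 classes with enough cells, 1 call was made in 123 tests of a member over the 3 comparisons, where 0.716% of all tests of genes were calls. In choroid plexus-like cells Tyrobp had 217 and 132 CPM in WT bilirubin and 776 and 340.5 CPM in WT vehicle (log2 fold change -1.47, SE 0.40, adjusted p = 0.0319, edgeR), where 4.06% of 12304 genes were called, 3.19% lower and 0.878% higher. Choroid plexus epithelium is not known for Tyrobp. Tyrobp had a log2 fold change under 0 with bilirubin in each of these 9 classes, between -0.69 in mural-like and -1.47 in choroid plexus-like cells, and it was lower in whole libraries as well, with 805 and 607 CPM in WT bilirubin and 1656 and 1118 CPM in WT vehicle. In microglia-like cells the log2 fold change was -0.26. Microglia-like cells were 8.98% and 10.9% of kept cells in WT bilirubin and 9.31% and 11.2% in WT vehicle, with medians of 3062 and 2251 UMIs per cell in WT bilirubin and 1640 and 2459 UMIs in WT vehicle, and both measures overlapped between the groups.

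Other genes of the programme, from lists chosen with results of this series known, were read in the same microglia-like cells. Values of the genes that follow are TMM-scaled CPM, mean ± SD of 2 libraries. Of 21 further disease-associated genes tested, 2 rose with bilirubin and 0 fell, where 0.275% of all genes were called higher and 1.4% lower: Ctsl, the lysosomal protease cathepsin L, with 1591 ± 162 CPM in WT bilirubin and 456 ± 178 CPM in WT vehicle (log2 fold change 1.80, SE 0.38, adjusted p = 0.0424, edgeR), and Lyz2 with 292 ± 52.5 CPM in WT bilirubin and 112 ± 40.01 CPM in WT vehicle (1.39, SE 0.31, adjusted p = 0.0464). Neither call held when only the 4 wild-type libraries were fitted, a fit in which no gene was called. In the knockout with bilirubin, Ctsl had 980 ± 325 CPM and Lyz2 188 ± 13.7 CPM; neither differed from WT bilirubin or WT vehicle by the test, and for Lyz2 against WT bilirubin the log2 fold change was -0.63 (SE 0.31, adjusted p = 1, edgeR). The median of the 21 was 0.23 with bilirubin and -0.39 for the knockout against WT bilirubin, beside 0.06 and -0.01 for all genes.

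Of 12 genes that signal below TREM2, TYROBP and dectin-1, none was called in a comparison. With bilirubin 11 of the 12 had a log2 fold change above 0 and the median was 0.69, beside 0.06 for all genes. The summed microglial markers given above were also higher in both WT bilirubin libraries than in both WT vehicle libraries. Neuronal transcripts were lower there. The part of this shift in Trem2, in these genes and in the lipid handling genes below was not tested. Card9, the adaptor that links dectin-1 to NF-kB, had 25.8 ± 0.558 CPM in WT bilirubin and 10.8 ± 3.79 CPM in WT vehicle (1.22, SE 0.33, adjusted p = 0.0716, edgeR). Lat2, a membrane adaptor, had 92.6 ± 1.36 CPM in WT bilirubin and 50.3 ± 6.18 CPM in WT vehicle (0.88, SE 0.27, adjusted p = 0.11, edgeR). In the knockout against WT bilirubin, 1 of the 12 was above 0, with a median of -0.24 beside -0.01; Hcst, the adaptor DAP10, had 26.5 ± 1.65 CPM in the knockout and 46.6 ± 16.5 CPM in WT bilirubin (-0.81, SE 0.35, adjusted p = 1, edgeR), and Lat2 had 62.2 ± 11.3 CPM in the knockout.

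Among 11 lipid handling genes tested, none was called, and 10 were above 0 with bilirubin (median 0.53). Abca1, a cholesterol exporter that loads APOE, had 156 ± 33.3 CPM in WT bilirubin and 96.4 ± 3.55 CPM in WT vehicle (0.69, SE 0.28, adjusted p = 0.213, edgeR), and 154 ± 7.84 CPM in the knockout with bilirubin. Plin2, a coat protein of lipid droplets, had 29.0 ± 5.80 CPM in WT bilirubin and 18.1 ± 4.65 CPM in WT vehicle (0.68, SE 0.31, adjusted p = 0.269, edgeR). Between knockout and WT bilirubin, 2 of the 11 lipid genes were above 0, and Abcg1, a cholesterol exporter, was among those with the smallest p, with an adjusted p of 1 (edgeR). Among 8 ligands and partner receptors, none was called; Pros1, a ligand of TAM receptors, had 128 ± 20.8 CPM in WT bilirubin and 75.8 ± 0.862 CPM in WT vehicle (0.75, SE 0.28, adjusted p = 0.174, edgeR), and Tyro3, a sister receptor of AXL, had 4.01 ± 3.02 CPM in WT bilirubin and 11.8 ± 1.80 CPM in WT vehicle (-1.39, SE 0.51, adjusted p = 0.176). Cd44, a receptor of osteopontin, had 0.304 ± 0.429 CPM in the knockout and 3.81 ± 2.59 CPM in WT bilirubin (-2.74, SE 0.96, adjusted p = 1). That knockout level rests on few UMIs and lies below the floor of 3 counts given above for knockout replicate 2. The size of the change is thus uncertain.

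The homeostatic list, which falls where the disease-associated programme is complete, gave no call: of 14 genes 0 were called with bilirubin, and 11 had a log2 fold change above 0 (median 0.25 beside 0.06). Several of these genes, P2ry12, Tmem119 and Cx3cr1 among them, were also markers of the gate. A fall in cells that had lost them could thus be missed. Cst3, cystatin C, had 50756 ± 2075 CPM in WT bilirubin and 98165 ± 9858 CPM in WT vehicle (-0.95, SE 0.44, adjusted p = 0.281, edgeR). P2ry12 had 1151 ± 274 CPM in the knockout with bilirubin, 898 ± 36.2 CPM in WT bilirubin and 663 ± 32.1 CPM in WT vehicle; the knockout differed from WT vehicle by 0.80 (SE 0.32, adjusted p = 0.594, edgeR). Cx3cr1 had 763 ± 201 CPM in the knockout with bilirubin and 1297 ± 31.8 CPM in WT vehicle (-0.77, SE 0.37, adjusted p = 0.616).

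Of 10 genes that tissue dissociation can raise, none was called in a comparison, and their log2 fold changes had a median of 0.54 with bilirubin beside 0.06 for all genes. Their sum was 8930 and 8398 CPM in knockout with bilirubin, 10036 and 10989 CPM in WT bilirubin and 6663 and 6345 CPM in WT vehicle. Junb had 1594 ± 424 CPM in WT bilirubin and 578 ± 23.2 CPM in WT vehicle, and Dusp1 788 ± 48.6 CPM against 322 ± 39.2 CPM (adjusted p = 0.0509 each, edgeR). The sums did not overlap between groups, with the knockout libraries between those of WT bilirubin and WT vehicle. The levels of Clec7a, Itgax and Trem2 given above lay so as well, Trem2 only before TMM scaling. The part of dissociation in the levels of the members was not tested.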

How the data were processed

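Brain cells were measured by droplet 3' single-cell RNA sequencing in 6 libraries, 2 per group. The authors deposited raw UMI counts per gene and cell; the barcode and gene tables they deposited hold names only. The submitters' processing notes name Cell Ranger 8.0.0, Scanpy 1.9.6, GRCm39 and mm10, the matrix headers Cell Ranger 9.0.1. The sources used here do not say which build was counted, and printed coordinates are those of the RefSeq table on GRCm38.p6, matched by symbol for 8 of 10 members.

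Libraries held 24165563 to 63402551 UMIs. Barcodes were kept from 500 UMIs and 300 genes upward, with up to 15% of UMIs from mitochondrial genes. Of these, 12523 were removed as doublets with Scrublet in scanpy 1.11.5; in WT bilirubin replicate 1 and knockout replicate 2 the automatic threshold called an implausible share, and the cells with the highest scores were removed up to the expected rate of 0.8% per 1000 cells. A marker was positive in a cell with at least 1 UMI above 3 times its share of the library. A class needed 3 positive markers and a lead of 2 over every other class. Members were not used as markers. UMIs were summed per library and class.

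Classes of 20 or more cells in every library, and border macrophages with fewer, were tested two-sided with edgeR 4.0.16 in R 4.3.3 (quasi-likelihood, TMM, filterByExpr), with 3 residual degrees of freedom and Benjamini-Hochberg adjustment over all genes of a class and comparison at 0.05. The labels do not say that libraries came from separate animals, so p-values reflect only how these libraries vary, possibly for technical reasons. Replicates were not 1 library deposited again, since their microglial counts differed by 6.41 to 23.3 times counting noise (chi-square per degree of freedom). Floors cover counting error only. The tests were tested on simulated data. The members, lists and tests were chosen with earlier results of these data known.

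Genes outside the members were named by rule: for each member the 2 other classes with the highest level and the 2 genes most like it, and for each list the 2 tested genes with the smallest p. Some genes that the rule names are not reported here. DESeq2 1.42.0 was an alternative. Genes of the carrier description and the leukocyte-free microglia were added after seeing the data.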

Additional observations from a re-analysis of the deposited data

How the results depend on the processing

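In microglia-like cells no member was called in 13 or more of 16 alternatives of each comparison. The exceptions were Itgax and Clec7a (2 members) without a filter on low counts, Clec7a (1 member) with a replicate block, 0 to 3 members when 1 library was left out (3 without WT bilirubin replicate 1), and Cst7 (1 member) in the knockout against WT bilirubin without the filter. Clec7a ranged from 1.35 to 1.74, Itgax from 2.10 to 2.78 and Cst7 in the knockout against WT bilirubin from -2.43 to -1.50. The number of genes called was less stable. For bilirubin, with 237 called, it was 1003 without the filter, 360 with DESeq2, 0 with only the 4 libraries compared, 717 with the replicate block, 517 with clusters in place of the gate, 157 with a stricter cell filter, 3 with doublets kept and 0 to 1261 with 1 library left out. For the knockout against WT bilirubin, with 1 called, the numbers were 38 without the filter, 4 with DESeq2, 2 with 4 libraries, 3 with the block and 0 to 162 with 1 library left out. For the knockout against WT vehicle, with 0 called, they were 69, 2, 13, 1 and 0 to 34. In border macrophage-like cells 3 genes were called for bilirubin without the filter and 2 with DESeq2; with 1 library left out there were 0 to 14 for bilirubin, 0 to 8 and 0 to 5 for the knockout against WT bilirubin and WT vehicle. The number of genes whose change differed between the 2 classes was 0 to 4, 0 to 8 and 0 to 6 in the same order.

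Some small fold changes turned sign. In microglia-like cells, knockout against WT vehicle, Trem2 came to -0.042 with clusters and Axl to 0.024 with doublets kept. In border macrophage-like cells, knockout against WT vehicle, Apoe, Trem2 and Tyrobp came to 0.81, 0.77 and 0.54 without the filter and Apoe and Trem2 to 0.12 and 0.19 with doublets kept; Tyrobp came to -0.017 for bilirubin with the stricter cell filter. With 1 library left out, Axl ranged from -0.47 to 0.31 in microglia-like cells of the knockout against WT vehicle. For bilirubin, Lpl ranged from -0.65 to 0.16, Spp1 from -1.81 to 0.26, Axl from -0.24 to 0.54 and Apoe from -0.10 to 0.52. For the knockout against WT bilirubin, Spp1 ranged from -1.03 to 1.04, Apoe from -0.10 to 0.53 and Lpl from -6.85 to 0.21. In border macrophage-like cells Apoe ranged from -1.22 to 0.66 and Trem2 from -0.47 to 0.20 against WT vehicle, and Apoe from -1.76 to 0.14 against WT bilirubin. The cause was not tested. Same-numbered libraries share only a number: the correlation of their deviations in microglia-like cells was 0.04, 0.02 and -0.08 in the 3 comparisons. In border macrophage-like cells it was 0.01, -0.20 and -0.17. With the knockout numbers crossed in the block, a fit chosen after seeing the data, 0 genes were called there in each comparison. The cluster alternative named no border macrophage cluster and gives no value there. Depth limits the scarce members most, with 2 to 95 UMIs per library for Cst7, Itgax and Clec7a.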
